A study of Pan troglodytes with 217 samples.

Results

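Amino acid transporters of 7 gene families were followed across the cell types of chimpanzee blastoids, blastocyst-like structures grown from naive pluripotent stem cells. The members were all gene symbols of the SLC1A, SLC3A, SLC6A, SLC7A, SLC36A, SLC38A and SLC43A series, which gave 60 of the 18046 symbols attached to the 33729 gene identifiers. A read was found for all 60 in the cells described. SLC7A6OS carries the series name only because it lies over SLC7A6, and it is not known as a transporter.

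The study derived naive pluripotent stem cells from chimpanzee and aggregated them into blastoids, and single cells of day 4 blastoids were sequenced with SMART-seq2, which makes a separate full-length cDNA library from each cell. The sequenced cells all belong to 1 condition: blastoids from naive cells kept with PRC2 inhibition. Clusters of these cells were first held in PALY, which is N2B27 medium with PD, A83, LPA and the ROCK inhibitor Y-27632; PD was withdrawn in the next step, and the last step was N2B27 without additions. Most of the mural trophectoderm was cut off, and by the study's methods it was dissociated apart from, and for longer than, the inner cell mass with its polar trophectoderm. Which of these a cell came from is not given in the labels, so a difference between classes and one between dissociations cannot be told apart. The blastoid, line and plate of a cell are not given in the labels, so all cells count as 1 sample, with no replicates and nothing to test across.

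Cells import amino acids through carriers that differ in their cargo and in what drives them. SLC3A2 (CD98 or 4F2hc) is a heavy chain that brings light chains of the SLC7 family to the cell surface, where they exchange one amino acid for another. Other SLC7 members carry arginine and lysine without a heavy chain, SLC1 members carry glutamate or small neutral amino acids, SLC38 members carry glutamine and alanine with sodium or act at the lysosome, and many SLC6 members carry neurotransmitters, taurine or creatine. In the placenta, system A (SLC38A1, SLC38A2 and SLC38A4) and the light chains of SLC3A2 are the best known carriers of amino acids from mother to fetus.

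A filter of at least 8000 genes with a read left out 24 cells. The others had 1679888 to 25630392 reads each, and clustering placed them in 4 groups, named from marker lists: 50 epiblast-like, 32 hypoblast-like, 60 early trophectoderm-like and 51 late trophectoderm-like cells. In epiblast-like cells 8 of 8 epiblast markers reached 10 CPM (a gene's reads scaled to 1000000 reads per cell) in at least 50% of the cells, and in hypoblast-like cells 6 of 8 hypoblast markers did. Each trophectoderm-like class had 8 of 9 trophectoderm markers at that level. CDX2 was at 24.8 CPM in the early class and at 1.62 CPM in the late class, where CCR7 stood at 315 CPM against 5.71. Clustering without the transporters put every cell into the same class. The border between the early and late classes moved with other settings. At a clustering resolution of 0.5 these classes held 73 and 38 cells, and at 1.5 they held 73 and 36. With a filter of 7000 genes, which let more cells pass, they held 76 and 42. Differences between early and late cells rest on this border. The members took part in the clustering that is used here, so differences between classes are descriptions.

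Markers of another lineage were found in cells of the inner classes. The counts that follow pool trophectoderm factors with markers of the other inner class, so neither kind is counted alone. GATA3, GATA2 and VGLL1, all trophectoderm factors, or the defining markers of the other inner class were together at 10 CPM or more in 15 of the 50 cells of the epiblast-like class and in 16 of the 32 of the hypoblast-like class. Markers of an inner class were found this way in 1 early and 3 late trophectoderm-like cells. Doublets were not called, so 2 cells in a well and a cell with both programmes cannot be told apart. Leaving these cells out kept the same members in use in all 4 classes, and levels without them are given where they move by over 1.5 times or end a call.

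A gene is called used by a class when at least 50% of its cells had 10 CPM or more. A level is the reads of a gene over all reads of the class, in CPM, and is not divided by transcript length, so levels are compared between classes for a gene and not between genes. Epiblast-like cells used 12 members (39.5% of all symbols were used), hypoblast-like cells 12 (36.7% of all symbols), early trophectoderm-like cells 14 (36%) and late trophectoderm-like cells 14 (37.1%). In total 17 members (43.7% of all symbols) were used by at least 1 class and 9 (31.9%) by all 4. The 9 were the heavy chain SLC3A2, the light chains SLC7A5, SLC7A6, SLC7A7 and SLC7A8, the carriers SLC38A2, SLC38A7 and SLC38A9, and the taurine carrier SLC6A6. With cells thinned to 2532312 reads and the 20 shallower cells dropped, SLC38A10 and SLC7A2 left the hypoblast-like set, SLC1A5 entered it, and SLC7A11 entered the late trophectoderm-like set; lower depth and fewer cells cannot be told apart there. SLC1A5 left the late trophectoderm-like set with a filter of 7000 genes and with a clustering resolution of 0.5 or 1.5. The share of members in use was below that of all symbols in every class.

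**Figure D1:**
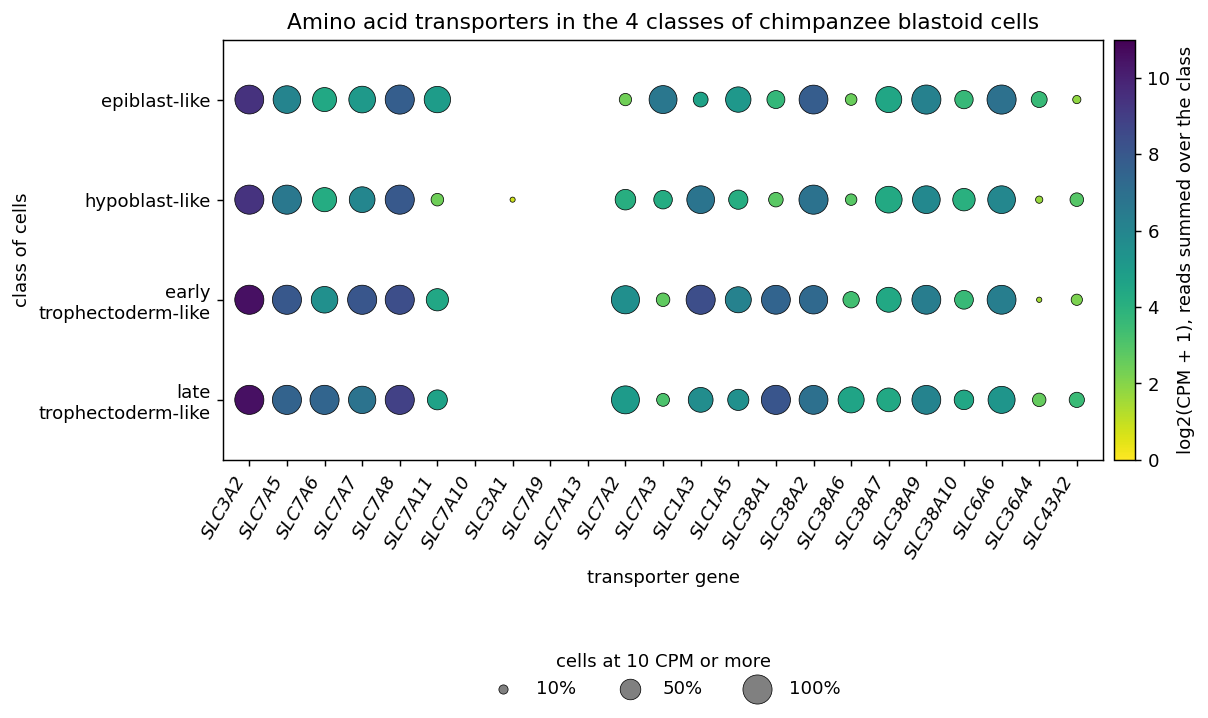
Each dot is a transporter (x axis) in a class of cells (y axis). Its colour is the class level as log2(CPM + 1), not divided by transcript length, and its area is the share of cells with 10 CPM or more; no dot means no such cell. SLC38A1 and SLC7A2 have large dots in both trophectoderm-like rows, and SLC7A3 has its largest dot in the epiblast-like row.

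By family, SLC7A had 7 of 14 members in use, SLC7A6OS counted among the 14, SLC38A had 6 of 11 and SLC6A 1 of 19, where 43.7% of all symbols were used by at least 1 class. SLC1A had 2 of 7 and SLC3A 1 of 2, and none of the 4 SLC36A or 3 SLC43A members reached the threshold. Of the 43 members that no class used, 27 stayed under 1 CPM in all classes and 16 reached 1 CPM or more in a class. A cell had a median of 14 members at 10 CPM or more among epiblast-like, 13 among hypoblast-like, 15.5 among early and 15 among late trophectoderm-like cells. The summed level of all 60 members was 1741 CPM in the epiblast-like and 1604 CPM in the hypoblast-like class, against 3501 CPM in the early and 3203 CPM in the late trophectoderm-like class. The heavy chain SLC3A2 alone made up 691, 678, 1514 and 1493 CPM of these sums in the same order. The sums add genes without dividing by transcript length, so they describe reads of the 60 members and not amounts of carrier.

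Of the members with 10 CPM or more over all passing cells, 17 of 60 (41.9% of all symbols reached this), 9 were at least 2-fold higher over all trophectoderm-like cells than over all inner cells (8.38% of the 7555 genes at that level), and only SLC7A3 was at least 2-fold lower (12% of those genes). The 9 were SLC38A1, SLC7A6, SLC7A2, SLC7A7, SLC1A3, SLC38A6, SLC7A5, SLC3A2 and SLC1A5. The median log2 ratio of trophectoderm-like over inner cells was 1.10 for the 17 members and -0.03 for the 7555 genes. Between the late and early classes the medians were close, at -0.02 for the members and 0.05 for all genes. This comparison was chosen after the levels were seen, and a member could pass the 10 CPM filter through the lineage where it was high. SLC38A1, SLC7A2 and SLC38A6 were under 10 CPM over all inner cells, and SLC7A3 was over all trophectoderm-like cells. With medians over cells in place of summed reads, SLC1A5, SLC38A6 and SLC3A2 were no longer among the 9. Under the stricter rule that each trophectoderm-like class exceeds each inner class 2-fold, 3 members were called (1.32% of all symbols), SLC38A1, SLC3A2 and SLC7A6. Of these only SLC38A1 was called under every alternative setting. SLC7A6 lost the call at a clustering resolution of 1.5, with medians over cells, with a pseudocount of 10 CPM and with a fold of 3. With medians the count was again 3, but SLC7A2 and SLC7A7 stood in place of SLC3A2 and SLC7A6. By the opposite rule 1 was called (2.47% of all symbols), SLC7A3.

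**Figure D2:**
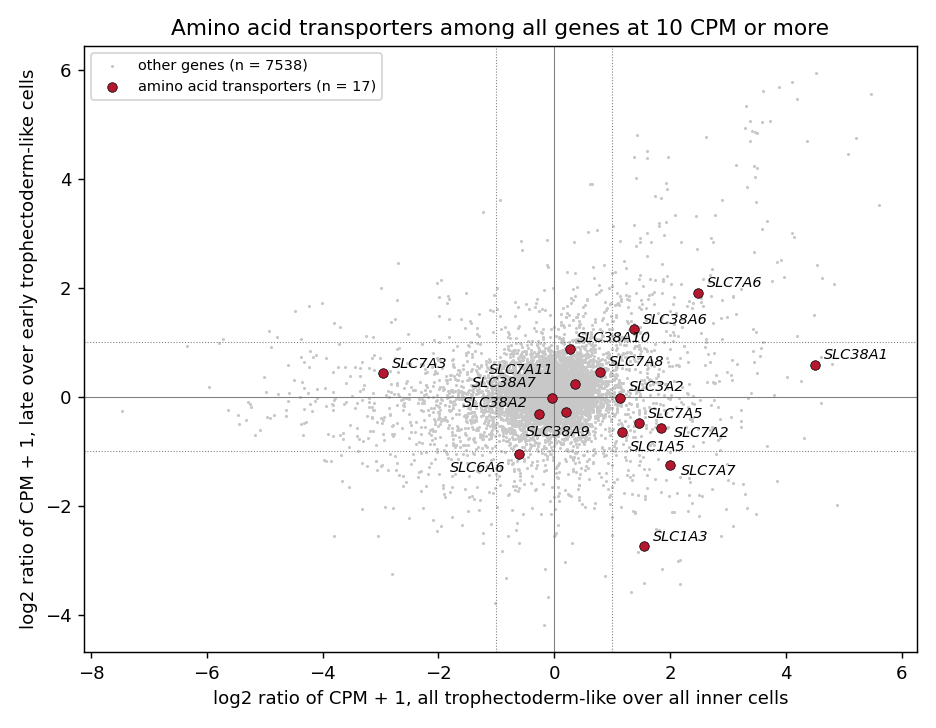
The x axis is the log2 ratio of CPM + 1 in all trophectoderm-like over all inner cells, and the y axis the same ratio of late over early trophectoderm-like cells. Grey points are the other genes with 10 CPM or more over all passing cells and red points the 17 transporters at that level; dotted lines mark 2-fold. SLC38A1 lies farthest right and SLC7A3 farthest left among the transporters, and SLC7A6 and SLC1A3 lie at opposite ends of the y axis.

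SLC3A2 was read in every cell. It ran from 0.35 to 2719 CPM in epiblast-like cells with a median of 642, and from 168.3 to 1702 CPM in hypoblast-like cells with a median of 606.5. In early trophectoderm-like cells it ran from 345 to 4705 CPM with a median of 1336, and in late ones from 312 to 4568 CPM with a median of 1134. The ranges overlapped, and an early trophectoderm-like cell was higher than an epiblast-like cell in 84.03% of all pairs of cells. Class levels were 691 (95% Poisson interval 687.5 to 694.6), 678 (673 to 682), 1514 (1510 to 1519) and 1493 (1488 to 1498) CPM. These intervals cover counting error only, since copies of a cDNA molecule are counted more than once, and they are far narrower than the spread between cells. The excess of about 2.16-fold for late over epiblast-like cells was just past the 2-fold line, and SLC3A2 no longer exceeded both inner classes 2-fold in both trophectoderm-like classes with means or medians over cells, at a clustering resolution of 1.5, or in the cells thinned to 1 depth. In the epiblast-like cell at 0.35 CPM, POU5F1 stood at 1743 CPM and all members summed to 130 CPM, which was the lowest sum of any cell.

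The light chains SLC7A5 (LAT1) and SLC7A8 (LAT2) exchange large neutral amino acids such as leucine. SLC7A5 had class levels of 64.03 CPM in epiblast-like, 94.91 in hypoblast-like, 257.4 in early and 184.1 in late trophectoderm-like cells. It was at 10 CPM or more in 45 of 50 epiblast-like cells and in every cell of the other classes. Per cell it ran from 0 to 333 CPM (median 46.6) in epiblast-like and from 71.1 to 793 CPM (median 227.1) in early trophectoderm-like cells, and an early cell was the higher in 93.6% of pairs. SLC7A8 changed less, with 215.9, 248.3, 337.2 and 464.1 CPM in the same order of classes, and every cell had at least 10 CPM of it. The median SLC7A8 cell rose from 195.5 CPM in the epiblast-like to 300.6 CPM in the late trophectoderm-like class. In the late class 1 cell held 22.9% of the SLC7A5 reads, without which the level was 148.4 CPM. For SLC7A8, 1 late cell held 20.7% of the reads, and the level was 384.8 CPM without it.

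SLC7A7 (y+LAT1) and SLC7A6 (y+LAT2) are the light chains that exchange cationic for neutral amino acids, and their levels parted within trophectoderm-like cells. SLC7A7 stood at 32.6 CPM in epiblast-like, 60.01 in hypoblast-like, 265.4 in early and 111.4 in late trophectoderm-like cells. Its cells ran from 33.7 to 971 CPM with a median of 238.4 in the early class, and from 0.87 to 446 CPM with a median of 94.7 in the late class. The early class was thus 2.38-fold above the late one (counting interval 2.35 to 2.42), and the early cell was the higher in 84.1% of pairs. SLC7A6 went the other way, with 20.0 and 17.6 CPM in the epiblast-like and hypoblast-like classes, 45.4 CPM in the early and 173.4 CPM in the late class. It ran from 0 to 483 CPM with a median of 27.9 in early cells, and from 14.3 to 944 CPM with a median of 93.3 in late cells. Late cells were the higher in 81.6% of pairs, and the class ratio was 3.82 (counting interval 3.74 to 3.90).

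The ratio of SLC7A7 to SLC7A6 reads, which length does not move between classes, was 1.63 in epiblast-like, 3.41 in hypoblast-like, 5.84 in early and 0.642 in late trophectoderm-like cells. The late value is one of summed reads, of which 1 cell held 17.5% for SLC7A6, and the medians over cells were 94.7 CPM for SLC7A7 and 93.3 CPM for SLC7A6 in late cells against 238.4 and 27.9 CPM in early cells. The overlapping SLC7A6OS is read without strand by this method, so its reads and those of SLC7A6 cannot be told apart where they overlap. It stayed between 4.039 and 5.603 CPM in the 4 classes.

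**Figure D3:**
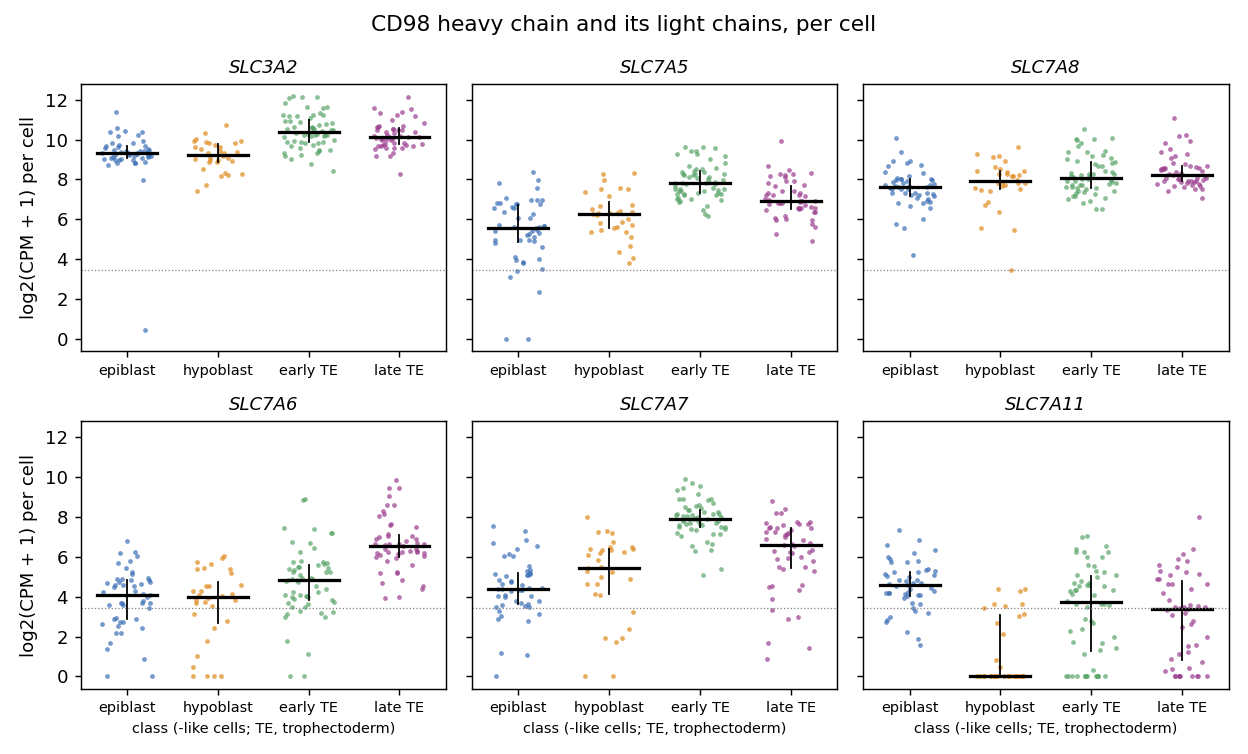
Each point is a cell, with the class on the x axis and log2(CPM + 1) on the y axis. Black bars are medians, thin lines the middle 50% of cells, and the dotted line is 10 CPM. SLC3A2 and SLC7A8 lie above the line in nearly every cell, SLC7A7 is highest in early and SLC7A6 in late trophectoderm-like cells, and the hypoblast-like median of SLC7A11 is 0.

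SLC7A11 (xCT), the light chain that imports cystine in exchange for glutamate, was low in hypoblast-like cells. Its levels were 30.4 CPM in epiblast-like, 4.38 in hypoblast-like, 20.9 in early and 24.6 in late trophectoderm-like cells. All 50 epiblast-like cells had a read and 41 had 10 CPM or more (82%, exact 95% interval 68.6% to 91.4%). In the hypoblast-like class 13 of 32 cells had a read and 6 had 10 CPM or more (18.8%, 7.21% to 36.4%). In the 48 epiblast-like and 25 hypoblast-like cells deep enough to be thinned to 1 depth, these shares were 85.4% and 16%. The epiblast-like cell was the higher in 92.6% of pairs. For comparison the hypoblast-like level was 14.4% of the epiblast-like one for SLC7A11, 18.3% for SLC7A3, 33.3% for the pluripotency factor POU5F1 and 13.5% for NANOG.

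A cell can use a light chain only with its heavy chain. SLC3A2 and at least 1 of its light chains were at 10 CPM or more in 49 of 50 epiblast-like cells and in every cell of the other 3 classes. At least 4 light chains were at that level in 84% of epiblast-like, 68.8% of hypoblast-like, 90% of early and 96.1% of late trophectoderm-like cells. SLC7A10 (Asc-1), the light chain for small neutral amino acids, stayed under 0.5 CPM. The second heavy chain, SLC3A1 (rBAT), known from kidney and gut, reached 0.80 CPM in hypoblast-like cells, where all its reads came from 1 cell, and its partners SLC7A9 and SLC7A13 stayed under 0.4 CPM. Across the cells of a class, SLC3A2 and SLC7A5 had a Spearman rho of 0.59, 0.37, 0.64 and 0.42 in the order above. The cells share a class and the normalization to total reads, so these values are given as a description.

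The CAT carriers of cationic amino acids need no heavy chain, and among them SLC7A2 (CAT2) and SLC7A3 (CAT3) had opposite patterns across the lineages. SLC7A3 stood at 98.7 CPM (97.4 to 100.1) in epiblast-like, 18.02 in hypoblast-like, 5.47 in early and 7.77 in late trophectoderm-like cells. It ran from 0 to 721.5 CPM with a median of 70.4 in epiblast-like cells, while the medians were 6.72, 0.38 and 0 CPM in the other classes. At 10 CPM or more it was found in 46 of 50, 13 of 32, 13 of 60 and 10 of 51 cells. SLC7A3 was among the members led by the epiblast-like class, that is, at least 2-fold above each of the other classes at 10 CPM or more, with a fold of 5.48 over hypoblast-like and 18.04 over early trophectoderm-like cells. Its hypoblast-like level dropped to 13.7 CPM without the cells with markers of another lineage, while the epiblast-like level was then 100.7 CPM, so the rule for both inner classes no longer called it.

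SLC7A2 stood at 4.22 CPM in epiblast-like, 16.1 in hypoblast-like, 47.01 in early and 31.5 in late trophectoderm-like cells. It ran from 1.97 to 250 CPM with a median of 39.3 in early and from 4.09 to 100.3 CPM with a median of 27.2 in late cells. Epiblast-like cells had a median of 0.46 CPM and hypoblast-like cells of 10.2 CPM. Every trophectoderm-like cell had SLC7A2 reads, against 27 of 50 epiblast-like cells, and the epiblast-like level was 2.71 CPM without the cells with markers of another lineage. The hypoblast-like class reached the threshold for use in exactly 16 of 32 cells, and no longer did, at 44%, in the 25 of them deep enough to be thinned to 1 depth.

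The reads of SLC7A2 over those of SLC7A3, again a ratio to be compared between classes only, were 0.0428 in epiblast-like, 0.893 in hypoblast-like, 8.59 in early and 4.05 in late trophectoderm-like cells. At 10 CPM or more, 12 of the 32 hypoblast-like cells had neither gene and 9 had both. SLC7A1 (CAT1), the carrier of this kind found in most tissues, was at 1.07 CPM or less in each class; it was picked out after its values were seen, and whether the annotation or the alignment lowers it was not tested.

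**Figure D4:**
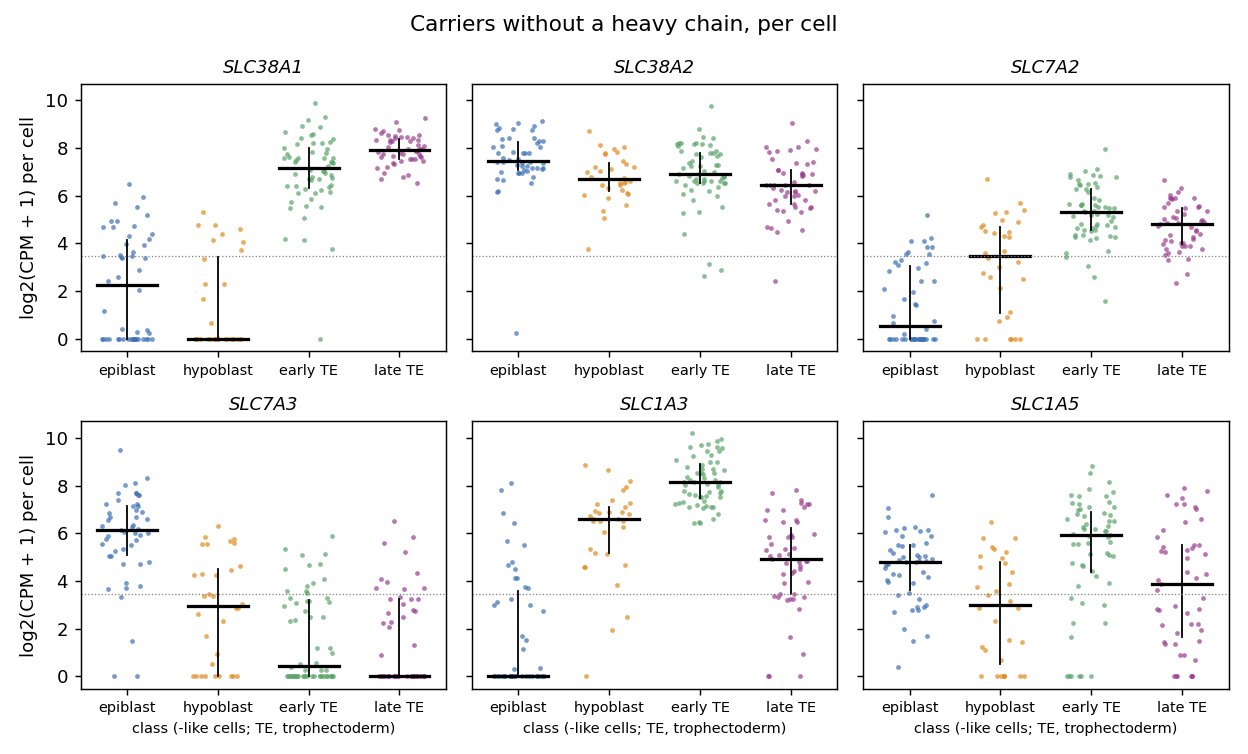
Each point is a cell, with the class on the x axis and log2(CPM + 1) on the y axis. Black bars are medians, thin lines the middle 50% of cells, and the dotted line is 10 CPM. SLC38A1 lies above both inner classes in all late cells and overlaps them in early cells, SLC38A2 overlaps in all classes, SLC7A2 and SLC7A3 run in opposite directions, and SLC1A3 peaks in early trophectoderm-like cells.

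The widest gap between lineages among the 17 members at 10 CPM or more lay in system A. SLC38A1 (SNAT1), which takes up glutamine and alanine with sodium, stood at 11.7 CPM in epiblast-like, 6.09 in hypoblast-like, 178.5 in early and 269.5 in late trophectoderm-like cells. It was read in 31 of 50 epiblast-like cells, from 0 to 87.6 CPM with a median of 3.75, and in 13 of 32 hypoblast-like cells, from 0 to 38.7 CPM with a median of 0. Early cells ran from 0 to 951.9 CPM with a median of 143.2, and late cells from 90.3 to 600.6 CPM with a median of 242.5. All 51 late cells were above all cells of both inner classes, and 59 of 60 early cells had 10 CPM or more. Over all trophectoderm-like cells SLC38A1 was 23.2-fold higher than over all inner cells. Without the cells with markers of another lineage, the inner levels fell to 5.51 and 3.94 CPM.

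SLC38A2 (SNAT2), the system A carrier known to respond to amino acid shortage, had no such gap. Its levels were 223.8, 114.5, 156.2 and 125.1 CPM in the order epiblast-like, hypoblast-like, early and late trophectoderm-like, and the ratio of trophectoderm-like over inner cells was 0.771. An epiblast-like cell exceeded a late trophectoderm-like cell in 80.4% of pairs. In the RefSeq gene table of the chimpanzee (assembly NHGRI_mPanTro3-v2.0), SLC38A4, SLC38A2 and SLC38A1 follow one another with 0 protein-coding genes between them. SLC38A4, the liver and placental member, reached at most 0.87 CPM in a class.

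SLC38A6, an SLC38 member whose cargo is less well known, was led by the late trophectoderm-like class, at 22.5 CPM against 4.71, 6.22 and 8.98 CPM in epiblast-like, hypoblast-like and early trophectoderm-like cells. With a fold of 3 or a pseudocount of 10 CPM, this call and its call for late over early ended. It was at 10 CPM or more in 41 of 51 late cells (80.4%, exact 95% interval 66.9% to 90.2%) and in 19 of 60 early cells (31.7%, 20.3% to 44.96%). Its hypoblast-like level was 9.59 CPM without the cells with markers of another lineage. Of the members at the lysosome or inside the cell, SLC38A7, which exports glutamine from the lysosome, stood between 19.8 and 21.3 CPM in the 4 classes and SLC38A9, the lysosomal arginine sensor upstream of mTORC1, between 57.4 and 81.9 CPM. SLC38A10 stood at 11.2, 15.1, 11.1 and 21.1 CPM, and 48.4% of its late trophectoderm-like reads came from 1 cell, without which the late level was 11.4 CPM. Its late level was 1.91-fold the early one, and it was called higher in late than in early cells with a filter of 9000 genes and at a clustering resolution of 0.5 or 1.5. Only the hypoblast-like class used it, with 59.4% of cells at 10 CPM or more against 40% to 45.1% in the other classes.

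SLC1A3 (GLAST or EAAT1), a sodium-driven importer of glutamate and aspartate best known from glia, was led by the early trophectoderm-like class. Its levels were 24.3 CPM in epiblast-like, 107.95 in hypoblast-like, 339.6 in early and 49.96 in late trophectoderm-like cells. All 60 early cells had reads, from 84.3 to 1161 CPM with a median of 282. Late cells ran from 0 to 225 CPM with a median of 29.1, and the early class was 6.80-fold above the late class (counting interval 6.67 to 6.93). Of the early cells 35 were above every late cell. Hypoblast-like cells ran from 0 to 458 CPM with a median of 96.7, and the median of epiblast-like cells was 0. A single epiblast-like cell held 43.6% of the reads of its class, and it had 426 CPM of GATA3 beside 678 CPM of POU5F1. The epiblast-like level was 14.3 CPM without that cell and 7.05 CPM without all cells with markers of another lineage, while the hypoblast-like level was 103.4 CPM after the same step.

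The remaining glutamate carriers SLC1A1, SLC1A2, SLC1A6 and SLC1A7 were under 1 CPM in every class. SLC1A5 (ASCT2), which exchanges glutamine, stood at 34.04, 16.58, 71.5 and 45.5 CPM in the usual order, with wide ranges of 0 to 455 CPM in early and 0 to 238.2 CPM in late trophectoderm-like cells. Its medians of 27.1 CPM in epiblast-like and 13.5 CPM in late trophectoderm-like cells were in the opposite order to the class levels. Without the cells with markers of another lineage, the hypoblast-like level was 10.7 CPM. SLC1A4 (ASCT1) had 0 reads in the 50 epiblast-like cells, which by the limit of 3 counts allows a share of up to 6% of cells with a read, and was read in 19 of 60 early trophectoderm-like cells; it was picked out after its values were seen.

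In the SLC6 family only SLC6A6 (TauT), the taurine carrier, was in use. It stood at 121.6 CPM in epiblast-like, 59.05 in hypoblast-like, 79.6 in early and 37.7 in late trophectoderm-like cells. Epiblast-like cells ran from 18.9 to 482.6 CPM with a median of 115.7, and late cells from 0 to 136.6 CPM with a median of 29.5. An epiblast-like cell was the higher in 92.8% of these pairs. SLC6A6 was the used member with the largest fall from the epiblast-like to the late trophectoderm-like class after SLC7A3, at 3.22-fold. Between the early and late classes its ratio of 2.11 was close to the 2-fold line, and the call ended with a filter of 7000 genes, at a clustering resolution of 0.5 and with a pseudocount of 10 CPM.

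Several unused SLC6 members had levels that differed between classes, and those that follow were picked after their values were seen. SLC6A8, the creatine carrier, was at 9.96 and 9.92 CPM in the epiblast-like and hypoblast-like classes against 3.86 and 1.38 CPM in the early and late classes, and was read in every inner cell. SLC6A19 (B0AT1), a carrier of neutral amino acids known from gut and kidney, was highest in hypoblast-like cells at 17.1 CPM and was at 10 CPM or more in 14 of 32 of them. SLC6A4, the serotonin carrier, was read in 35 of 60 early and 33 of 51 late trophectoderm-like cells, in 9 of 50 epiblast-like cells and in 1 of 32 hypoblast-like cells. SLC6A3, the dopamine carrier, was read in 25 of 50 epiblast-like cells, 14 of 32 hypoblast-like cells, 2 of 60 early trophectoderm-like cells and 8 of 51 late ones.

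The SLC36 and SLC43 families gave 1 call each, and both rested on few cells. SLC36A4 was led by the epiblast-like class at 10.9 CPM against 2.26, 1.88 and 5.07 CPM in hypoblast-like, early and late trophectoderm-like cells, with 15 of 50 epiblast-like cells at 10 CPM or more. Without its top cell the epiblast-like level was 9.98 CPM, under the 10 CPM limit. SLC43A2 (LAT4), a facilitated carrier of branched-chain amino acids, was at 10.8 CPM in late and 3.48 CPM in early trophectoderm-like cells, and 32.7% of the late reads came from 1 cell, without which the level was 7.58 CPM. Its call for late over early also ended in thinned cells, with means or medians over cells and with a pseudocount of 10 CPM. The late class led it with 7000 genes, at a resolution of 0.5 or 1.5, with a fold of 1.5 and without cells with markers of another lineage.

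By the rule for a leading class, 2 members were led by the epiblast-like class (3.06% of all symbols), 0 by the hypoblast-like class (1.06%), 2 by the early (0.676%) and 2 by the late trophectoderm-like class (1.81%). These were SLC7A3 and SLC36A4, SLC1A3 and SLC7A7, and SLC7A6 and SLC38A6. Within trophectoderm-like cells 3 members were at least 2-fold higher in the late class (2.98% of all symbols), SLC7A6, SLC38A6 and SLC43A2. The 3 at least 2-fold higher in the early class (2.16%) were SLC1A3, SLC7A7 and SLC6A6. A count of 2 is 3.33% of the members and a count of 3 is 5%, and a single member more or less moves either share by 1.67 percentage points.

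Single cells weighed on the pooled levels. A late trophectoderm-like cell held the most reads for 7 of the 14 members its class used, and its members summed to 10175 CPM against a class median of 2453. It had 1310 CPM of CCR7 and 1491 CPM of CGA, both late trophectoderm markers. Without it the members of the late class summed to 2883 CPM. A cell of 25630392 reads held the most reads for 10 of the 14 members used by the early class, and its sum of 2734 CPM was near the class median of 2983. Leaving out the cell of this kind from each of the 4 classes ended the calls of SLC36A4 for the epiblast-like class, of SLC3A2 for both trophectoderm-like classes, of SLC7A3 for both inner classes and of SLC43A2 for late over early.

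Other genes of amino acid handling were read beside the members. Of 9 carriers outside the 7 families, 8 were used by at least 1 class (43.7% of all symbols were) and 3 were called, 2 as led by the epiblast-like class (3.06% of all symbols) and 1 as higher in both trophectoderm-like classes (1.32%). SLC16A10 (TAT1), an exporter of aromatic amino acids, was led by the epiblast-like class at 32.9 CPM against 6.99, 4.07 and 2.76 CPM in hypoblast-like, early and late trophectoderm-like cells. SLC25A12, a mitochondrial aspartate and glutamate carrier, was led by it too, at 56.9 CPM against 4.45, 2.41 and 5.25 CPM. SLC25A13, of the same SLC25 series, was not called. It stood at 77.5, 91.6, 120.9 and 205.1 CPM in epiblast-like, hypoblast-like, early and late trophectoderm-like cells. SLC66A1 (PQLC2), which exports cationic amino acids from the lysosome, was higher in both trophectoderm-like classes, at 60.7 and 63.1 CPM against 17 CPM in both inner classes.

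Of 18 genes for sensing amino acids at the lysosome, 11 were used by all 4 classes (31.9% of all symbols were) and 2 were called, 1 as led by the late trophectoderm-like class (1.81% of all symbols) and thereby higher in it than in the early class (2.98%), and 1 as higher in the early than in the late class (2.16%). CASTOR1, the cytosolic arginine sensor of mTORC1, was led by the late trophectoderm-like class at 80.6 CPM against 16.04, 13.89 and 20.95 CPM. RRAGB, a Rag GTPase, was higher in early than in late trophectoderm-like cells, at 10.5 against 3.59 CPM. MTOR itself stayed between 28.2 and 44.6 CPM.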

How the data were processed

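Read counts per gene and cell were used as the authors deposited them, without normalization. By the study's methods, FastP trimmed the reads and STAR aligned them to the chimpanzee genome and counted genes; the submitters' processing notes instead name Trim Galore 0.6.6, STAR 2.7.7a and GRCh38. Symbols were attached to 18783 identifiers, and identifiers with 1 symbol were summed, which touched SLC6A8, SLC6A16 and SLC7A4. Cells with fewer than 4000 reads or 8000 genes were left out, which kept more cells than the study reports for the same filter. Genes read in at least 20 cells entered scanpy 1.11.5 (log-normalized, 50 components, 30 neighbours) and leidenalg 0.10.2 at resolution 1. Class levels have exact Poisson and shares exact Clopper-Pearson 95% intervals, for counting error at most. The intervals of levels and ratios take each read as independent, which copies of a cDNA molecule are not. Ratios against fewer than 3 counts use 3 counts. For a common depth 173 cells were thinned to 2532312 reads and the 20 shallower ones dropped. Members named by rule are those used or called, and the chains of SLC3A1 and SLC3A2; the others named (SLC7A1, SLC38A4, SLC7A6OS and single SLC1 and SLC6 members) were picked after their values were seen. Members, lists and rules were chosen with earlier results of these data known. Software was pandas 2.3.3, numpy 2.4.6, scipy 1.17.1 and matplotlib 3.10.9 under Python 3.11.15, and the counting code was tested on simulated data. Alternatives covered cell filter, clustering, thresholds, folds, averaging, scaling and pseudocount.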

Additional observations from a re-analysis of the deposited data

Results flagged for a closer look

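The 24 cells left out for too few detected genes entered no class, and their transporter reads were not used in the comparisons. Summed over them, 21 members were at 10 CPM or more. The share of all symbols at that level was not computed for these cells, so the count is not a result about the members. Of the 21, 16 were also used by a class, which is a share of cells and not a summed level. SLC3A2 stood at 2019 CPM there, above the level of each of the 4 classes and above the 0.0685 CPM that a count of 3 allows, and it was read in 23 of the 24 cells. SLC7A8 was at 975 CPM and SLC38A2 at 288 CPM in the same cells. They have no class, so whether a lineage or cell quality moves with these levels was not tested.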

How the results depend on the processing

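No replicate could be left out, since all cells count as 1 sample. No paired analysis was possible because the result comes from no test. Over 24 alternative settings, 47 counts of members moved by more than 1.5 times and the others did not; the cause was not tested unless the setting itself shows it. With 1 read as the threshold for use, the 4 classes used 23, 20, 25 and 24 members. With a fold of 1.5, 1 member was led by the hypoblast-like and 4 by the late trophectoderm-like class, 6 were higher in both trophectoderm-like classes, 5 in late over early, 5 in early over late and 2 over all inner cells. With a fold of 3, the epiblast-like, early and late classes led 1 each, 1 was higher in both trophectoderm-like classes, 0 in both inner classes, 1 in early over late and 5 over all trophectoderm-like cells. With at least 7000 genes per cell, the late class led 4 and 2 were higher in both inner classes. At resolution 1.5, 1 was higher in both trophectoderm-like classes, and SLC1A5 was led by the early class there, at resolution 0.5 and with 7000 genes. Means over cells gave 2 higher in both inner classes. Medians gave 1 led by the epiblast-like class, 0 higher in both inner classes and 0 over all inner cells. The epiblast-like class led 1, having lost SLC36A4, after scaling by the median of ratios, with a pseudocount of 1 or 10 CPM, and without the top cell of each gene. A pseudocount of 10 CPM also left 1 led by the late class, 0 higher in both inner classes and 1 in late over early. With at least 1 CPM in the higher class, the early class led 4, 6 were higher in both trophectoderm-like and 3 in both inner classes, 6 in early over late and 5 over all inner cells. With no level filter, the 4 classes led 11, 2, 8 and 4, 9 were higher in both trophectoderm-like and 5 in both inner classes, 14 in late over early, 16 in early over late, 21 over all trophectoderm-like and 18 over all inner cells. Without cells with markers of another lineage, 0 were higher in both inner classes. The scaling by the median of ratios shifted epiblast-like levels by -0.14 on the log2 scale and the other classes by at most 0.05. Genes under 1 CPM rest on few reads in few cells, which limits any call on them.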
